A study of Mus musculus with 16 samples.

Results

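The MHC class II antigen presentation genes described here are 10 genes, taken by symbol from the 52636 genes counted in the dorsal root ganglia (DRG) of mice: H2-Aa, H2-Ab1, H2-Eb1, Cd74, H2-DMa, H2-DMb1, H2-DMb2, H2-Oa, H2-Ob and Ciita. All 10 were matched, and all 10 passed the filter on low counts. Bulk RNA sequencing was performed on 16 libraries, each from the L3 to L6 DRGs of 1 male C57BL/6J mouse aged 3 to 4 months, in 4 groups of 4 mice. SNI mice received the spared nerve injury, a model of neuropathic pain in which the common peroneal and sural branches of the left sciatic nerve are ligated and cut, and Sham mice received surgery without the nerve injury. From 4 weeks after surgery, as the series' design text has it (the methods write months in place of weeks), mice were injected 2 times per day for 3 weeks with the tricyclic antidepressant desipramine (DMI, 15 mg/kg i.p.) or with saline. Crossing surgery with drug gives Sham-Saline, Sham-DMI, SNI-Saline and SNI-DMI, and no group was left without surgery or without injections. Library numbers in the labels run in separate blocks for DMI and saline and for each surgery, so that an effect of library order cannot be told apart from an effect of treatment.

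MHC class II molecules display peptides from engulfed material to CD4+ T cells. H2-Aa and H2-Ab1 encode the alpha and beta chains of I-A, and H2-Eb1 encodes the beta chain of I-E. Cd74, the invariant chain, fills the groove of a new class II molecule until lysosomal proteases cut it away. The H2-M dimer (H2-DMa with an H2-DMb chain) then exchanges its last fragment for antigenic peptide, and the H2-O dimer (H2-Oa with H2-Ob) restrains H2-M, mainly in B cells and dendritic cells. Ciita is the coactivator that switches the class II genes on, and in the DRG class II is chiefly known from resident and infiltrating macrophages.

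Of these genes, 8 lie in the MHC on chromosome 17 of the mouse genome (GRCm38, GENCODE M21). H2-Oa (34092340 to 34095234), H2-DMa (34119541 to 34139101), H2-DMb2 (34143307 to 34151555), H2-DMb1 (34153072 to 34160230), H2-Ob (34238903 to 34254414), H2-Ab1 (34257689 to 34269419) and H2-Eb1 (34305867 to 34316674) are on the plus strand, and H2-Aa (34282744 to 34287823) is on the minus strand. Ciita is on the plus strand of chromosome 16 (10480059 to 10528418). Counts in exons were summed over each whole gene. H2-DMb1 and H2-DMb2 share part of their sequence. Of their 50-base runs, 22.65% and 24.76% are shared with another gene, mostly with each other, so the division of reads between them is uncertain. The exons of H2-Oa overlap those of BC051537 on the opposite strand over 22.8% of their length, and those of H2-DMa overlap Brd2 over 10.4%. The strand setting of the counting is not given in the sources used here, and reads of such partners cannot be told apart without it.

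Class II promoters share a conserved module of X and Y boxes, bound by the RFX and NF-Y complexes on which Ciita assembles. Sequence upstream of the start was at hand from RefSeq (GRCm38.p6) for 7 of the 10 genes, and the 250 bases before each start were searched on both strands for the Y box core GATTGG and an X box core AGNNACNGA. The stretches below run from 110 to 21 bases before the start and are given because these genes are compared as a co-regulated family throughout. They lie at chr17:34287844-34287933 (H2-Aa, minus strand) and, on the plus strand, at chr17:34305757-34305846 (H2-Eb1), chr17:34153081-34153170 (H2-DMb1), chr17:34145139-34145228 (H2-DMb2), chr17:34092269-34092358 (H2-Oa) and chr17:34238795-34238884 (H2-Ob). Each is written 5′ to 3′ along its gene, and capitals mark the matches to either core.
H2-Aa: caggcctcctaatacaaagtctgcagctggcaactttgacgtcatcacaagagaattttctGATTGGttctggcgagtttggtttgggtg
H2-Eb1: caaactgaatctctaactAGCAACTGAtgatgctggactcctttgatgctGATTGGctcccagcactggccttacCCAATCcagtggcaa
H2-DMb1: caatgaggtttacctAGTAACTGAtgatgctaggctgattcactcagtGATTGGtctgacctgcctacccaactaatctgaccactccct
H2-DMb2: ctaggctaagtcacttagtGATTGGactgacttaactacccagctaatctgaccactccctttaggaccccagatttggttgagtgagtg
H2-Oa: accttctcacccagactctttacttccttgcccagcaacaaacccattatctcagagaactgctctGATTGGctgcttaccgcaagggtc
H2-Ob: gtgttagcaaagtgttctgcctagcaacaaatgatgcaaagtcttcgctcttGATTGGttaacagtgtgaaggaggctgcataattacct

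The Y box core lies on the sense strand of this stretch in 6 of the 7 genes searched, and these 6 are the ones printed. The same stretch holds that match in 4.32% of 32851 RefSeq promoters. Over the whole 250 bases and both strands, the Y box core is in 14.56% and the X box core in 14.66% of all promoters. An X box core followed on the sense strand by a Y box core that starts 15 to 45 bases later is in 24 promoters (0.073%), among them H2-Eb1 and H2-DMb1. H2-DMa is not printed, and neither of its 2 RefSeq starts has the Y box core between 110 and 21 bases upstream. At 1 start neither core was found in the 250 bases, and at the other a Y box core lay 199 bases upstream. A match is a description of letters and not of a bound site, and the absence of a match says nothing about the factor.

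The depth was 41194238 to 73920332 read pairs on genes per library, with a median of 61663706.5. Levels are given as CPM, counts scaled to a common library size after edgeR's TMM normalization. Levels of different genes are compared as FPKM, which divides by annotated exon length, except where CPM is named. The labels give spinal cord as tissue beside DRG as cell type. Markers of sensory neurons summed to 4236 to 5028 CPM in every library. The 6 markers of spinal cord cells summed to 9.885 to 17.78 CPM, most of it Aqp4 (7.53 to 13.4 CPM) and Slc5a7 (1.72 to 4.92 CPM), while Olig1, Olig2, Mnx1 and Slc32a1 did not exceed 1.04 CPM.

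Per length, the class II genes fell into an abundant and a scarce set. Mean FPKM over the 16 libraries was 70.1 for Cd74, 38.2 for H2-Eb1, 23.1 for H2-Ab1 and 20.8 for H2-Aa, then 6.85 for H2-DMb1 and 6.00 for H2-DMa. It was 0.388 for H2-DMb2, 0.293 for Ciita, 0.134 for H2-Oa and 0.0872 for H2-Ob. Neighbours in this order were not always separable. The FPKM ratio of H2-Aa to H2-Ab1 ran from 0.761 to 1.12 across libraries, and that of H2-DMa to H2-DMb1 from 0.711 to 1.31. The paired chains of I-A were thus at similar levels per length, as were those of H2-M. H2-Eb1, by contrast, exceeded H2-Aa per length by 1.72 to 2.0 times in every library. These ratios depend on the annotated exon lengths, 3798 bases for H2-Aa, 2568 for H2-Ab1 and 1944 for H2-Eb1. Without division by length, mean CPM was 78.8 for H2-Aa, 74.2 for H2-Eb1 and 59.25 for H2-Ab1. The partner gene of H2-Eb1 is inactive in the C57BL/6 strain. It is annotated as the pseudogene H2-Ea-ps, which had 1 count in 1 of the 16 libraries. H2-Eb2, a further beta chain gene, had 0 to 7 counts per library and, like H2-Ea-ps, was too low to be tested.

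The abundant quartet of H2-Aa, H2-Ab1, H2-Eb1 and Cd74 was low and even in uninjured saline-treated mice and widely spread in both injured groups. H2-Aa stood at 66.5, 69.7, 67.8 and 74.3 CPM in Sham-Saline (mean 69.5 ± 3.42, SD, n = 4) and at 90.8, 156.6, 79.3 and 81.2 CPM in SNI-Saline (102 ± 36.8). All 4 SNI-Saline mice lay above all 4 Sham-Saline mice, and replicate 2 lay far above its group. H2-Aa was 60.7, 44.8, 58.8 and 66.3 CPM in Sham-DMI (57.7 ± 9.16) and 124.5, 70.7, 55.1 and 94.4 CPM in SNI-DMI (86.2 ± 30.2). The Sham-DMI values were all below those of Sham-Saline, though narrowly (66.33 against 66.46 CPM at the nearest). The SNI-DMI values overlapped with every other group.

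H2-Eb1 repeated this picture, with 62.8, 66.7, 62.2 and 69.7 CPM in Sham-Saline (65.4 ± 3.54) and 83.2, 143.2, 70.4 and 77.5 CPM in SNI-Saline (93.6 ± 33.5). With DMI it was 62.1, 39.5, 52.1 and 60.9 CPM in Sham-DMI (53.7 ± 10.4) and 122.5, 72.2, 50.1 and 91.7 CPM in SNI-DMI (84.1 ± 30.7). Sham-Saline and SNI-Saline did not overlap, nor, by a narrow margin (62.19 against 62.13 CPM), did Sham-Saline and Sham-DMI.

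H2-Ab1 and Cd74, the latter on the plus strand of chromosome 18 (60803848 to 60812652), overlapped between the groups of each comparison. In saline mice, H2-Ab1 was 47.0, 54.1, 53.8 and 62.7 CPM after sham surgery (mean 54.4 ± 6.43) and 66.0, 107.6, 47.9 and 60.5 CPM after SNI (70.5 ± 25.9). In DMI mice it was 50.1, 28.3, 39.7 and 46.2 CPM after sham surgery (41.1 ± 9.54) and 110.6, 55.4, 38.96 and 79.3 CPM after SNI (71.1 ± 31.1). Both injured groups reached above 100 CPM in 1 mouse each. SNI-DMI replicate 4, at 79.3 CPM, was also above all sham-operated mice (62.7 CPM at the highest). The other injured mice lay among the sham-operated mice or slightly above them. Cd74 was 97.3, 115.8, 110.4 and 129.8 CPM in Sham-Saline (113.3 ± 13.5) and 132.5, 232.8, 103.5 and 121.5 CPM in SNI-Saline (147.6 ± 58.1). It was 101.5, 53.5, 79.3 and 79.5 CPM in Sham-DMI (78.4 ± 19.6) and 208.5, 110.3, 67.2 and 140.1 CPM in SNI-DMI (131.5 ± 59.4). The highest value of each of the 4 genes came from SNI-Saline replicate 2 or SNI-DMI replicate 1, and the lowest from Sham-DMI replicate 2. The within-group coefficient of variation of the 4 genes was 4.92% to 11.9% in Sham-Saline and 15.9% to 25% in Sham-DMI, against 35.8% to 39.3% in SNI-Saline and 35.1% to 45.2% in SNI-DMI.

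**Figure D1:**
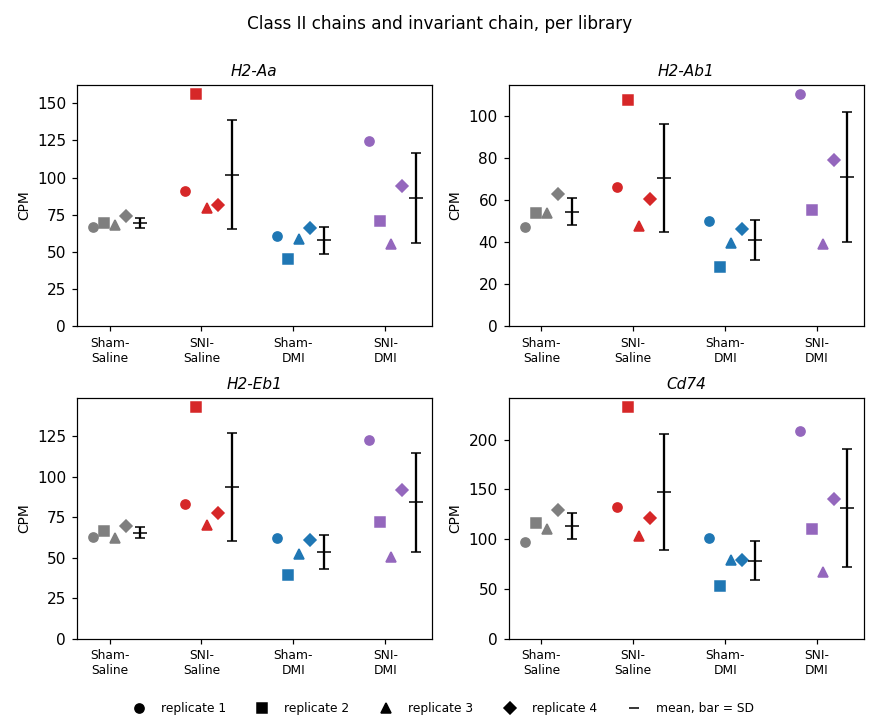
CPM (y axis, linear from 0) of H2-Aa, H2-Ab1, H2-Eb1 and Cd74 in each of the 16 libraries by group (x axis); the marker shape gives the replicate, and the black bar is the mean ± SD of 4 mice. In all 4 panels Sham-Saline is tightly grouped, and SNI-Saline replicate 2 and SNI-DMI replicate 1 stand above the other libraries.

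Of the chains of H2-M, H2-DMa had a within-group coefficient of variation of 7.41% to 21.8% and H2-DMb1 of 10.7% to 30.7%. H2-DMa was 13.7, 19.7, 19.1 and 17.6 CPM in Sham-Saline (17.5 ± 2.68) and 23.02, 26.5, 22.7 and 23.2 CPM in SNI-Saline (23.8 ± 1.76), without overlap. It was 19.6, 15.9, 20.3 and 21.6 CPM in Sham-DMI (19.4 ± 2.41) and 28.0, 17.6, 18.7 and 23.7 CPM in SNI-DMI (22 ± 4.80). H2-DMb1 was 7.72, 12.5, 10.9 and 8.71 CPM in Sham-Saline (9.95 ± 2.15) and 12.04, 14.5, 15.5 and 14.8 CPM in SNI-Saline (14.2 ± 1.52), groups that overlapped by 1 mouse each. With DMI it averaged 9.92 ± 3.04 CPM after sham surgery and 11.95 ± 2.30 CPM after SNI. H2-DMb2 was detected at 15 to 66 counts per library, with means of 0.608 and 0.890 CPM in Sham-Saline and SNI-Saline and of 0.474 and 0.740 CPM in Sham-DMI and SNI-DMI.

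H2-O, the inhibitor of H2-M, was near the limit of detection. H2-Ob had 40, 27, 24 and 47 counts in the 4 Sham-Saline mice (0.540 ± 0.188 CPM) and 15, 8, 5 and 21 in Sham-DMI (0.205 ± 0.106 CPM). It had 26, 59, 36 and 43 counts in SNI-Saline (0.667 ± 0.210 CPM) and 38, 30, 13 and 35 in SNI-DMI (0.466 ± 0.188 CPM). All 4 Sham-DMI mice were below all 4 Sham-Saline mice. H2-Oa had 13, 10, 1 and 7 counts in Sham-Saline, 9, 1, 1 and 12 in Sham-DMI, 19, 55, 8 and 15 in SNI-Saline and 9, 11, 2 and 13 in SNI-DMI. SNI-Saline replicate 2 alone held more H2-Oa counts than the 4 mice of any other group together.

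Ciita, the class II coactivator, was 2.99, 2.86, 2.96 and 2.85 CPM in Sham-Saline (2.92 ± 0.0686) and 1.86, 2.20, 2.22 and 2.32 CPM in Sham-DMI (2.15 ± 0.199). After injury it was 4.53, 5.29, 2.79 and 2.03 CPM with saline (3.66 ± 1.51) and 4.30, 1.62, 1.72 and 2.09 CPM with DMI (2.43 ± 1.26). Sham-DMI lay wholly below Sham-Saline. Among injured mice, SNI-Saline replicates 1 and 2 and SNI-DMI replicate 1 were above 4 CPM, and the others were at or below the level of Sham-Saline.

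**Figure D2:**
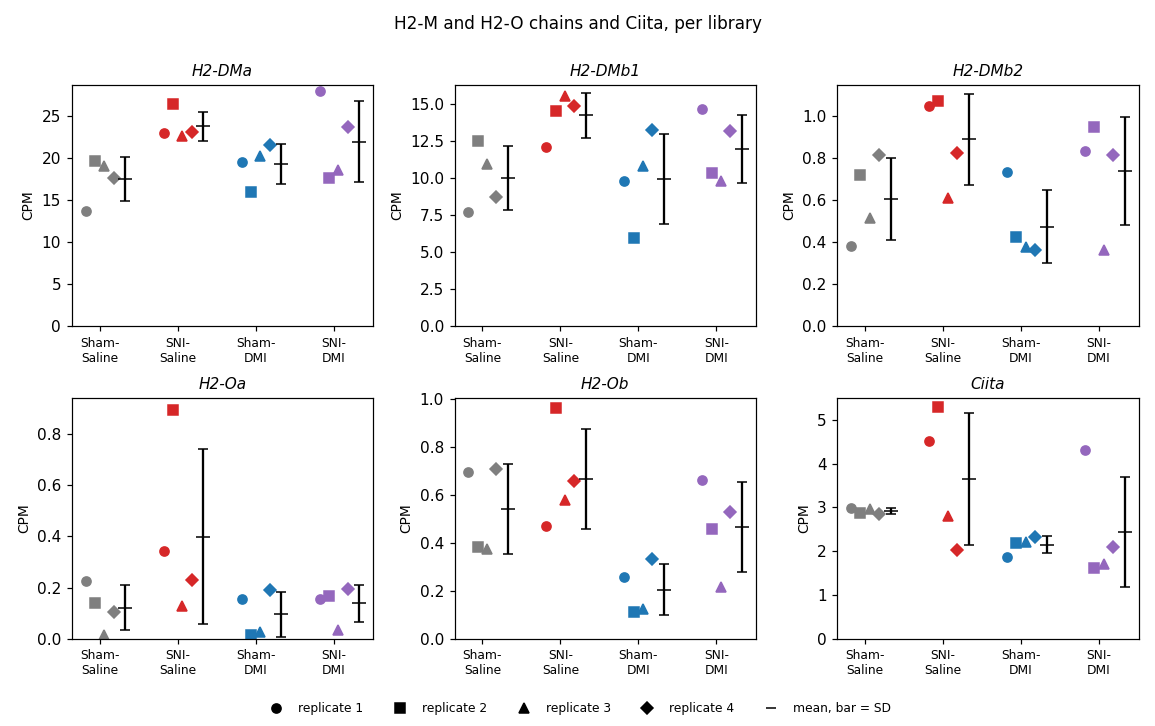
CPM (y axis, linear from 0) of H2-DMa, H2-DMb1, H2-DMb2, H2-Oa, H2-Ob and Ciita in each of the 16 libraries by group (x axis); marker shape gives the replicate and the black bar the mean ± SD of 4 mice. H2-DMa separates SNI-Saline from Sham-Saline, H2-Ob and Ciita separate Sham-DMI from Sham-Saline, and a single library sets the SNI-Saline mean of H2-Oa.

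The comparison of SNI-Saline with Sham-Saline asked what prolonged injury alone did to these genes. All 10 class II genes had a higher fitted level after injury, with a median log2 fold change of 0.48 against -0.00060 over the 21371 genes tested, of which 49.9% were higher. H2-DMa passed an adjusted p of 0.1 (log2 fold change 0.44 ± 0.14, SE, edgeR quasi-likelihood test, adjusted p = 0.0622), so 1 of 10 genes rose, beside 5.85% of all genes tested. At the looser cut-offs for a DEG, a log2 fold change of 0.32 or more in size at a nominal p under 0.05, there were 5 higher class II genes (H2-Aa, H2-Eb1, H2-DMa, H2-DMb1 and H2-Oa), beside 3.64% of all genes. Groups did not overlap for 3 of 10 (H2-Aa, H2-Eb1 and H2-DMa), beside 7.67% of all genes higher without overlap. H2-Aa had a log2 fold change of 0.55 ± 0.22 (adjusted p = 0.134), H2-Eb1 0.52 ± 0.23 (0.18), Cd74 0.38 ± 0.28 (0.44) and H2-Ab1 0.37 ± 0.26 (0.429). H2-DMb1 had 0.51 ± 0.20 (0.122) and H2-Oa 1.71 ± 0.70 (0.148), whereas Ciita had 0.33 ± 0.28 (0.532) and H2-Ob 0.31 ± 0.36 (0.662).

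The call for H2-DMa depended on single mice, its direction did not. Leaving out Sham-Saline replicate 1, 3 or 4, or replicate 1 or 2 of SNI-Saline, ended it, with an adjusted p of 0.0395 to 0.16 over the fits with 1 library left out. Its log2 fold change was 0.351 to 0.505 in these fits, and in the 5 that ended the call 1.59% to 3.57% of all genes were called higher. The number of class II genes called by edgeR was then 0, with 2 to 5 at a nominal p under 0.05. It was 2 without Sham-Saline replicate 2, Sham-DMI replicate 2 or 4 or SNI-DMI replicate 1 or 3, beside 5.93% to 7.94% of all genes higher. Without SNI-Saline replicate 3 it was 3, beside 6.61% of all genes higher. The median log2 fold change was 0.26 when SNI-Saline replicate 2 was left out. After removal of each library's GC and length trends, no class II gene was called by edgeR (4 had a nominal p under 0.05) and the median was 0.39, while the share of all genes called higher went from 5.85% to 1.82%. H2-DMa then had a log2 fold change of 0.37.

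In DMI-treated mice, SNI-DMI versus Sham-DMI, all 10 genes were again fitted higher after injury, with a median log2 fold change of 0.61 against 0.00071 over all genes. None of the 10 passed an adjusted p of 0.1 with edgeR or DESeq2 (smallest adjusted p = 0.253 with edgeR), beside 0.402% of all genes in either direction. A nominal p under 0.05 was reached by 5 of 10, and the same 5 were DEGs by the looser cut-offs, beside 4.07% of all genes higher. These were H2-Ab1 (0.79 ± 0.27), Cd74 (0.75 ± 0.28), H2-Eb1 (0.65 ± 0.23), H2-Aa (0.58 ± 0.22) and H2-Ob (1.15 ± 0.41). Of the H2-M chains, H2-DMa was at 0.19 ± 0.14, H2-DMb1 at 0.27 ± 0.20 and H2-DMb2 at 0.64 ± 0.32. Without SNI-DMI replicate 3, H2-Ab1 and H2-Eb1 were called, beside 0.967% of all genes higher. Without SNI-DMI replicate 1, Ciita changed sign to -0.24 and the median was 0.43.

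Since injury pointed the same way in both arms, the effect of SNI averaged over saline and DMI was fitted as well, a contrast added after the values had been seen. With all 16 libraries, 7 of 10 class II genes rose at an adjusted p under 0.1, beside 7.71% of all genes tested. The log2 fold changes were 0.57 ± 0.15 for H2-Aa (adjusted p = 0.0318), 0.58 ± 0.16 for H2-Eb1 (0.0342), 0.31 ± 0.10 for H2-DMa (0.0476), 0.58 ± 0.19 for H2-Ab1 (0.058), 0.56 ± 0.20 for Cd74 (0.0757), 0.39 ± 0.14 for H2-DMb1 (0.081) and 0.73 ± 0.27 for H2-Ob (0.0952). H2-DMb2 (0.59 ± 0.22, 0.103), H2-Oa (1.11 ± 0.53, 0.197) and Ciita (0.25 ± 0.20, 0.467) did not pass. The count changed when mice were left out. It was 3 without any one of Sham-Saline replicate 1, SNI-Saline replicate 2, Sham-DMI replicate 2 and SNI-DMI replicates 1 and 4, beside 5.01% to 6.45% of all genes higher. It was 0 by edgeR (4 at a nominal p under 0.05) without both SNI-Saline replicate 2 and SNI-DMI replicate 1, with a median log2 fold change of 0.33 in place of 0.57. In that last fit 2.94% of all genes were called higher, in place of 7.71%. The count was 2 with GC content and length trends removed, beside 3.49% of all genes higher.

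**Figure D3:**
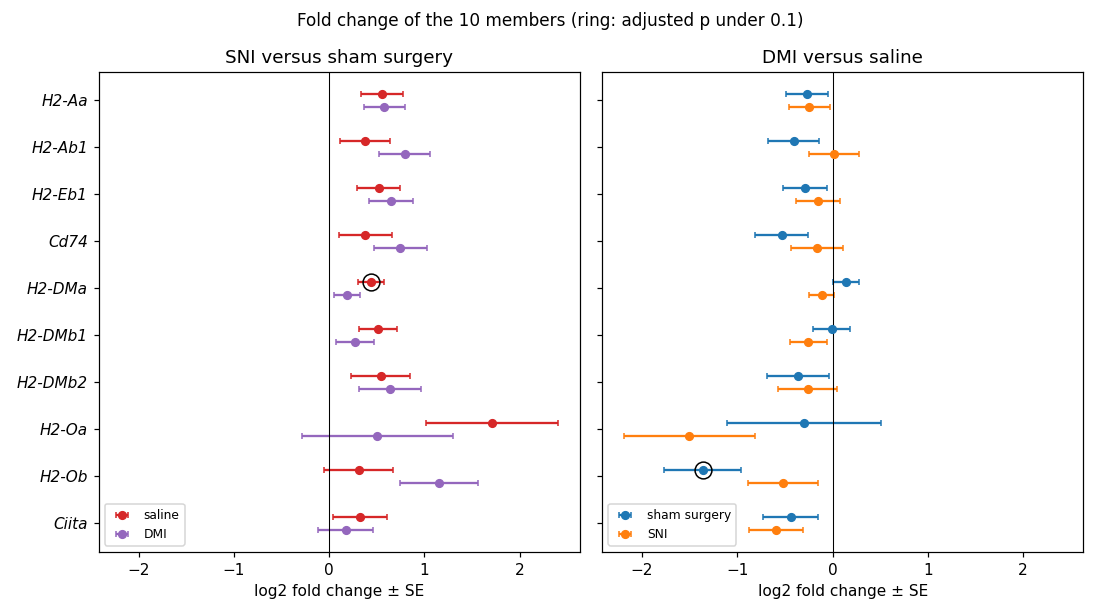
Log2 fold change ± SE (x axis) of the 10 class II genes (y axis) for SNI versus sham surgery in saline and DMI mice (left) and for DMI versus saline in sham-operated and SNI mice (right); a ring marks an adjusted p under 0.1. All injury values lie above 0, and only H2-DMa in saline mice and H2-Ob in sham-operated mice are ringed.

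In SNI-DMI versus SNI-Saline, which asked what DMI did to the injured ganglion, 9 of 10 genes had a lower fitted level, with a median log2 fold change of -0.25 against -0.0047 over all genes. No class II gene passed an adjusted p of 0.1 with edgeR or DESeq2 (smallest adjusted p = 0.25 with edgeR), beside 2.93% of all genes in either direction. With edgeR, 1 gene had a nominal p under 0.05, H2-Oa (-1.50 ± 0.69), which was also the sole DEG by the looser cut-offs, beside 3.8% of all genes lower. Ciita followed with -0.59 ± 0.28 (adjusted p = 0.274). The quartet was close to 0 relative to its errors, at -0.24 ± 0.22 for H2-Aa, -0.17 ± 0.27 for Cd74, -0.15 ± 0.23 for H2-Eb1 and 0.011 ± 0.26 for H2-Ab1. The direction of the quartet depended on single mice. Without SNI-Saline replicate 2, all 4 genes were fitted higher with DMI, with log2 fold changes of 0.058 for H2-Aa, 0.14 for H2-Eb1, 0.16 for Cd74 and 0.31 for H2-Ab1, and the median over the 10 was -0.092. That median was -0.42 without SNI-DMI replicate 1, and leaving out replicate 3 of the same group gave -0.047. This comparison shares the SNI-Saline libraries with that of injury in saline mice, so the opposite signs of both are not independent.

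In sham-operated mice, H2-Ob was the one class II gene called with DMI. It fell by 1.36 ± 0.40 on the log2 scale (adjusted p = 0.0277), which made 1 of 10 genes called lower, a share no higher than the 11.9% of all genes. Its adjusted p was 0.0091 to 0.0532 under the other settings in which it was tested and 0.0203 to 0.0789 with 1 library left out. H2-Ob was also the only DEG of the 10 by the looser cut-offs, beside 7.57% of all genes lower. Sham-DMI lay wholly below Sham-Saline in 4 of 10 genes (H2-Aa, H2-Eb1, H2-Ob and Ciita), beside 8.5% of all genes. The margin was small for H2-Aa (66.33 against 66.46 CPM) and H2-Eb1 (62.13 against 62.19 CPM). For both, the groups overlapped when CPM was scaled by raw library size in place of TMM. The log2 fold changes were -0.53 ± 0.28 for Cd74, -0.44 ± 0.29 for Ciita, -0.41 ± 0.27 for H2-Ab1, -0.29 ± 0.23 for H2-Eb1 and -0.27 ± 0.22 for H2-Aa, and none of these passed. H2-DMa was at 0.14 ± 0.14 and H2-DMb1 at -0.010 ± 0.20. In all, 9 of 10 were fitted lower (median -0.33 against -0.021 over all genes), or 8 of 10 with DESeq2's size factors, under which H2-DMb1 changed sign. Without Sham-DMI replicate 2, 7 of 10 were fitted lower and the median was -0.196. The removal of GC content and length trends altered the background in this comparison, from 11.6% of genes higher and 11.9% lower to 15.6% and 3.46%, while H2-Ob was called in both.

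The effect of DMI in injured and in sham-operated mice was compared directly. No class II gene had a difference that passed an adjusted p of 0.1 with edgeR or DESeq2, beside 0% of all genes with edgeR and, with DESeq2, 0.0562% called higher and 0.0187% lower. None of the 10 had a nominal p under 0.05 with edgeR, beside 7.92% of all genes. The difference was widest for H2-Oa (-1.20 ± 1.07) and H2-Ob (0.84 ± 0.54) and was 0.028 ± 0.31 for H2-Aa. Averaged over both surgeries, a contrast also added after the values had been seen, DMI lowered 2 of 10 genes at an adjusted p under 0.1, H2-Ob (-0.94 ± 0.27, adjusted p = 0.0188) and Ciita (-0.52 ± 0.20, 0.0743), beside 15.8% of all genes lower. Only H2-Ob was called when any one of Sham-Saline replicates 1 and 3, SNI-Saline replicates 1 and 2, Sham-DMI replicates 1, 2 and 3 and SNI-DMI replicates 2, 3 and 4 was left out. In those fits 11.5% to 15.7% of all genes were called lower. Without SNI-DMI replicate 1, 4 genes were called, beside 13.4% of all genes lower. The quartet did not pass (Cd74 -0.35 ± 0.20, adjusted p = 0.215, and H2-Aa -0.26 ± 0.15, 0.248).

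The quartet varied as one across mice. Pearson's r between any of its pairs was 0.952 to 0.99 over the 16 libraries, which share their scaling, and the FPKM ratio of H2-Eb1 to H2-Aa had a coefficient of variation of 4.68% while H2-Aa itself varied by 35.2%. With the mean standardized log2 CPM of the quartet, r was 0.807 for H2-Ob, 0.762 for H2-DMb2, 0.749 for H2-Oa, 0.733 for H2-DMa and 0.672 for H2-DMb1. Ciita had r = 0.678, and 0.335 without SNI-Saline replicate 2 and SNI-DMI replicate 1.

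The 5 genes most like the quartet, among 15743 genes with a mean of at least 1 CPM, were Cd52 (r = 0.968), a surface glycoprotein of leukocytes, Rac2 (0.962), a GTPase of blood cells, Pld4 (0.951), an endolysosomal nuclease, Lyz2 (0.944), the lysozyme of myeloid cells, and Mpeg1 (0.942), the pore-forming perforin-2 of macrophages. Without the pair of libraries with the highest class II levels, r for these 5 was 0.861 to 0.926. They were chosen as the highest of all genes on the same 16 libraries, so these values are a description.

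Macrophage markers moved with the class II genes. The 10 macrophage markers (Adgre1, Csf1r, Cd68, Aif1, Cx3cr1, Mrc1, C1qa, C1qb, Fcgr1 and Itgam) summed to 93.3 to 110.3 CPM in Sham-Saline and 74.1 to 102.3 CPM in Sham-DMI, against 118.8 to 205.4 CPM in SNI-Saline and 95.3 to 186.5 CPM in SNI-DMI. No library was at 0 for any of them. All 10 were fitted higher in SNI-Saline than in Sham-Saline, with 4 called beside 5.85% of all genes and a median log2 fold change of 0.44, and all 10 were fitted lower in Sham-DMI than in Sham-Saline, with 2 called beside 11.9% of all genes and a median of -0.25. The summed quartet spanned 3.86-fold over the 16 libraries, from 166.0 to 640.2 CPM, while its ratio to the macrophage sum spanned 1.43-fold, from 2.17 to 3.12. That ratio averaged 2.93 ± 0.0884 in Sham-Saline, 2.55 ± 0.280 in Sham-DMI, 2.81 ± 0.438 in SNI-Saline and 2.67 ± 0.341 in SNI-DMI. In bulk tissue, a change in the number of cells and a change in the RNA of each cell cannot be told apart, and the part of macrophage number in the class II levels was not tested.

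**Figure D4:**
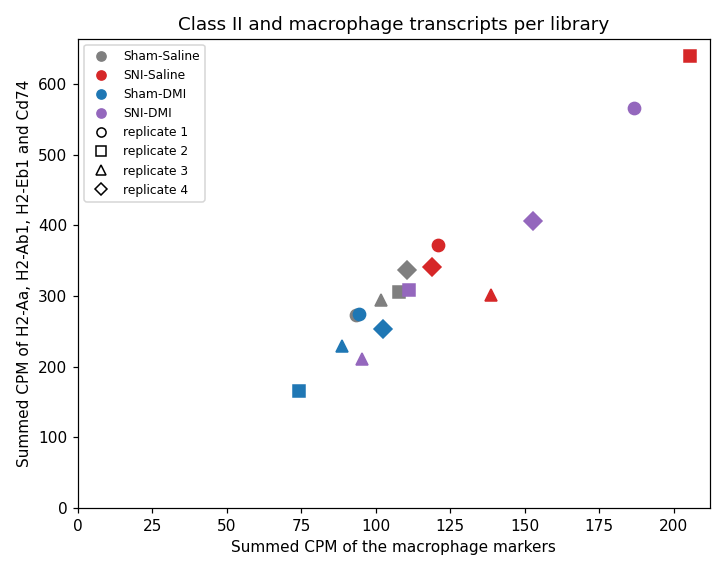
Summed CPM of H2-Aa, H2-Ab1, H2-Eb1 and Cd74 (y axis) against the summed CPM of 10 macrophage markers (x axis), 1 point per library, with colour for the group and shape for the replicate. The points lie along a line through a class II to macrophage ratio of 2.17 to 3.12, and the topmost points are SNI-Saline replicate 2 and SNI-DMI replicate 1.

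Markers of other antigen-presenting cells were examined in the same way. The 7 B cell markers summed to 2.98 to 5.22 CPM in Sham-Saline and 1.70 to 2.35 CPM in Sham-DMI, and to 2.44 to 3.92 CPM in SNI-Saline and 1.70 to 2.51 CPM in SNI-DMI, and Ms4a1 was at 0 in 2 libraries and Blk in 1. In Sham-DMI versus Sham-Saline, where H2-Ob fell, all 6 that were tested were fitted lower (median log2 fold change -1.37). Of these 3 were called, beside 11.9% of all genes called lower. In SNI-Saline versus Sham-Saline, 5 of the 6 were fitted lower and 1 was called (median -0.579), beside 6.18% of all genes called lower. H2-Ob was there fitted higher (0.31). The part of B cells in the level of H2-Ob was not tested. The 8 dendritic cell markers summed to 52.83 to 68.6 CPM, of which Flt3 (29.7 to 47.2 CPM) and Zbtb46 (15.9 to 19.7 CPM) made up most, and their r with the quartet was -0.302 and -0.484. The other 6 (Itgax, Clec9a, Ccr7, Batf3, Xcr1 and Cd209a) did not exceed 3.14 CPM. Their r with the quartet was positive, from 0.49 for Cd209a to 0.854 for Itgax. In Sham-DMI versus Sham-Saline, 7 of the 8 were fitted lower and 1 was called (median -0.614), beside 11.9% of all genes called lower. With injury in saline mice, 0 of 8 dendritic cell and 0 of 7 T cell markers were called by edgeR, beside 5.85% of all genes higher. A nominal p under 0.05 was reached by 0 and 1 of them. The 6 neutrophil markers were all fitted lower with DMI in sham-operated mice (4 called, median -1.58), beside 11.9% of all genes called lower. All 6 were also fitted lower with DMI in injured mice (1 called, median -1.4), beside 1.61% of all genes called lower. The part of neutrophils in the class II levels was not tested.

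The remaining steps of the pathway were followed with lists of genes for processing, transcription and costimulation. Of 11 tested genes for peptide loading and processing, 7 rose in SNI-Saline versus Sham-Saline and 0 fell, beside 5.85% of all genes higher and 6.18% lower. Among the 7 was Tap1 (0.89 ± 0.31, adjusted p = 0.0921), named after its values had been seen, which carries peptides for MHC class I and not class II. Ctss, the cathepsin that finishes the cutting of the invariant chain in antigen-presenting cells, rose by a log2 fold change of 1.01 ± 0.25 (adjusted p = 0.032), from 13.5 ± 1.04 to 27.1 ± 12.8 CPM. Its r with the quartet was 0.91. The broadly expressed lysosomal genes rose by less, with 0.42 ± 0.054 for the tetraspanin Cd63 (0.000632), 0.24 ± 0.060 for legumain Lgmn (0.03), 0.23 ± 0.049 for cathepsin D Ctsd (0.018), 0.18 ± 0.053 for cathepsin B Ctsb (0.0532) and 0.16 ± 0.042 for cathepsin L Ctsl (0.0346). In Sham-DMI versus Sham-Saline, 5 of the 11 rose and 2 fell, beside 11.6% of all genes higher and 11.9% lower. Those that rose were the same 5 lysosomal genes, by 0.26 ± 0.054 for Cd63, 0.28 ± 0.060 for Lgmn, 0.26 ± 0.049 for Ctsd, 0.20 ± 0.053 for Ctsb and 0.19 ± 0.042 for Ctsl, and both comparisons share the Sham-Saline libraries. Those that fell, named after their values had been seen, were March1 (-0.49 ± 0.16, adjusted p = 0.043), a ubiquitin ligase that removes class II from the cell surface, and Sppl2a (-0.22 ± 0.068, 0.0352), a protease that clears the membrane remnant of the invariant chain. Ctss did not pass, at -0.30 ± 0.26 (adjusted p = 0.462), and r with the quartet was -0.069 to 0.34 for these 5.

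Among 16 tested genes for class II transcription, 2 rose with injury in saline mice, beside 5.85% of all genes. Irf1, an interferon-induced activator of Ciita, was one of them (0.73 ± 0.22, adjusted p = 0.0636). The subunits of the RFX complex, which binds the X box, were at 0.14 ± 0.10 for Rfx5, 0.029 ± 0.073 for Rfxap and 0.016 ± 0.073 for Rfxank, with adjusted p-values of 0.453 to 0.928. In Sham-DMI versus Sham-Saline 1 of the 16 rose and 2 fell, beside 11.6% and 11.9% of all genes, and Irf1 was at -0.0022 ± 0.23. Of 8 tested costimulation and checkpoint genes, 1 rose with injury in saline mice, Cd86 (0.83 ± 0.23, adjusted p = 0.0426), a ligand of CD28, beside 5.85% of all genes. In Sham-DMI versus Sham-Saline all 8 were fitted lower and 2 fell, beside 11.9% of all genes. These, named after their values had been seen, were Cd80 (-1.58 ± 0.46, adjusted p = 0.0252), the other CD28 ligand, and Icosl (-0.37 ± 0.13, 0.0672), the ligand of ICOS. Cd80 was near the limit of detection, at 0.025 to 0.564 CPM over the libraries, with means of 0.409 CPM in Sham-Saline and 0.129 CPM in Sham-DMI. With DMI in injured mice, 1 of 11 processing genes fell (Sppl2a, -0.24 ± 0.068, adjusted p = 0.0973), beside 2.93% of all genes in either direction, and 0 of 16 transcription and 0 of 8 costimulation genes were called by edgeR, with 2 and 1 at a nominal p under 0.05.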

How the data were processed

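DRG RNA of 16 mice was made into stranded mRNA libraries by the authors, sequenced in pairs of 50-base reads, aligned to mm10 with HISAT2 in the NGS-Data-Charmer pipeline and counted per Ensembl gene with HTSeq, as the paper and the submitters' processing notes state. The versions of HISAT2 and HTSeq, the annotation release and the strand setting are not given in the sources used here. The deposited values are raw counts per gene, without normalization, and 5 closing lines of unassigned reads per library were left out.

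Counts were fitted in R 4.3.3 with edgeR 4.0.16. Genes were kept by filterByExpr (21371), scaled by TMM and tested with the quasi-likelihood test in 1 fit of 16 libraries with 1 coefficient per group. Benjamini-Hochberg adjustment ran over all genes tested, and an adjusted p under 0.1 was called. P-values measure the spread between mice of 1 experiment. Alternatives used DESeq2 1.42.0, mgcv 1.9.3, other scalings and filters, a replicate block and single libraries left out. Averaged contrasts, and the fit without both libraries with the highest class II levels, were added after the values had been seen. FPKM used the union exon length of GENCODE M21.

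Each list is described by counts, with no test over it. The 10 genes and the lists were chosen with earlier results of these data known. Pathway genes named are the 8 with the smallest p among those called, with H2-Eb2, H2-Ea-ps, Rfx5, Rfxap and Rfxank, and the 5 most like the quartet. One further gene of that rule is not reported here. On simulated counts of SNI-Saline versus Sham-Saline with 200 of 21371 genes changed by a log2 fold change of 1, 78.5% were recovered, and 98% of the 153 above 1 CPM, and 8.2% of 171 calls were false. Smaller changes, as fitted in that comparison for all class II genes but H2-Oa, were not simulated. Figures used matplotlib 3.10.9 in python 3.11.15.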

Additional observations from a re-analysis of the deposited data

Results flagged for a closer look

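In 40 groups of 4 mice (10 genes in 4 groups), 3 held a mouse whose gap to its nearest neighbour was wide enough against the group's range to pass Dixon's 95% critical value, where chance flags about 1 group in 20. H2-Aa in SNI-Saline replicate 2 was 156.6 CPM, against 79.3 to 90.8 CPM in the other mice of its group. H2-DMa in the same mouse was 26.5 CPM, against 22.7 to 23.2 CPM. H2-DMb2 in Sham-DMI replicate 1 was 0.734 CPM, against 0.363 to 0.425 CPM. None of the 10 genes passed an adjusted p of 0.1 with edgeR or DESeq2 for a difference between the DMI effects in injured and sham-operated mice, and with edgeR none had a nominal p under 0.05.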

How the results depend on the processing

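Counts of called class II genes moved by over 1.5 times under some settings, and the cause was not tested. For these counts, the percentage in parentheses is the share of all genes called in the same direction under the same setting. In SNI-Saline versus Sham-Saline, 1 gene was called (5.85%). With no filter on low counts 4 were called (2.62%), and with edgeR on the libraries of the contrast alone 4 (7.8%). The replicate block gave 2 (4.71%), and the removal of GC content and length trends gave 0 (1.82%). Without both SNI-Saline replicate 2 and SNI-DMI replicate 1 the count was 0 (1.33%), and it was 0 to 3 with 1 library left out (1.59% to 7.94%). In SNI-DMI versus Sham-DMI, with none called (0.374%), 2 were called with no filter (0.725%), and 0 to 2 with 1 library left out (0.0784% to 1.45%). In Sham-DMI versus Sham-Saline, with 1 called (11.9%), 0 were called with at least 10 counts in every library (14.6%), where H2-Ob was not tested. With edgeR on the contrast alone 3 were called (8.37%), and without both libraries 2 (9.57%). For SNI versus Sham over both treatments, with 7 called (7.71%), 2 were called with the trends removed (3.49%) and 0 without both libraries (2.94%). With 1 library left out the count was 3 to 8 (5.01% to 10.1%). For DMI versus saline over both surgeries, with 2 called (15.8%), 1 was called with at least 10 counts in every library (18.8%). With 1 library left out the count was 1 to 4 (11.5% to 15.7%). The median log2 fold changes moved by less than the spread between mice under every setting run. That limit (SD 0.276 to 0.469) was wider than some of the medians, which could vanish or change sign within it. With 1 library left out, the median ran from -0.421 to -0.0465 for SNI-DMI versus SNI-Saline. For the difference between the DMI effects it ran from -0.162 to 0.255. Of 120 such medians and counts, 108 kept within their limits under settings other than leaving out 1 library. Among single genes, those near 0 changed sign. H2-DMb1 in Sham-DMI versus Sham-Saline became 0.00202 with DESeq2's size factors, 0.0053 with DESeq2, 0.00629 with edgeR on the contrast alone and 0.00774 without both libraries (-0.168 to 0.195 with 1 library left out). H2-Ab1 in SNI-DMI versus SNI-Saline became -0.0355 with the replicate block and -0.0622 with the trends removed (-0.272 to 0.307 with 1 library left out). H2-DMa for DMI over both surgeries became -0.0232 with the trends removed and -0.0132 without both libraries (-0.0413 to 0.0701). Without both libraries, Ciita became -0.24 in SNI-DMI versus Sham-DMI (-0.24 to 0.328 with 1 library left out) and -0.0694 for SNI over both treatments. With 1 library left out, values for SNI-DMI versus SNI-Saline ran from -0.463 to 0.0577 for H2-Aa, -0.38 to 0.143 for H2-Eb1 and -0.467 to 0.159 for Cd74. H2-Oa in Sham-DMI versus Sham-Saline ran from -0.861 to 0.151. The difference between the DMI effects ran from -0.21 to 0.311 for H2-Aa, -0.114 to 0.41 for H2-Eb1, -0.0774 to 0.374 for H2-DMb2 and -0.579 to 0.0822 for Ciita. Replicate numbers did not pair the mice (correlation of same-numbered deviations -0.081 to 0.184), and the replicate block moved no other count of called class II genes by over 1.5 times. Removing the trends also shifted the split of all called genes, from 0.374% higher and 0.0281% lower to 0.533% and 0.674% in SNI-DMI versus Sham-DMI, from 1.32% and 1.61% to 0.0187% and 0.00936% in SNI-DMI versus SNI-Saline, from 7.71% and 8.43% to 3.49% and 6.55% for SNI over both treatments, and from 14.8% and 15.8% to 17.3% and 5.19% for DMI over both surgeries. The 40 group means of CPM moved by less than 1 SD on raw library sizes. Depth limits H2-Oa, H2-Ob and H2-DMb2, with as few as 1, 5 and 15 counts in a library.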
